A study of Mus musculus with 4 samples.

Results

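Occupancy by RYBP was read at the 9 genes that encode the DNA methyltransferase, TET and UHRF proteins of the mouse, which are Dnmt1, Dnmt3a, Dnmt3b, Dnmt3l, Tet1, Tet2, Tet3, Uhrf1 and Uhrf2. They were chosen by family name and not by their ChIP values, although earlier results of these data were known. They were 9 of 22225 protein-coding genes on the mm9 GENCODE annotation. RYBP is a subunit of variant Polycomb repressive complex 1, which places ubiquitin on histone H2A. The series holds 4 samples of wild-type FLK1+ mesoderm, sorted from embryoid bodies grown from mouse embryonic stem cells of strain C57Bl/6 X Sv129. Of these, 2 are RYBP ChIP samples, made with an antibody against DEDAF, which is another name of RYBP, and 2 are inputs. By the labels all 4 were taken at day 3.75 of differentiation, although the study's methods name a later day for RYBP. A design note describes the ChIP as one for SCL, but the title and the antibody name RYBP, so RYBP was taken as the target. Input samples came with no processed file and were not analysed here. There was no second genotype, treatment or time, so each value below describes where peaks lay in 1 kind of cell. Embryoid bodies are a culture model, FLK1+ cells from them are a sorted mixture, and peak positions give no measure of expression against which the FLK1+ label could be checked.

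DNA methylation in mammals sits mainly on cytosines of CpG dinucleotides. DNMT3A and DNMT3B set the mark on unmethylated DNA, DNMT3L is a catalytically inactive partner that stimulates them, and DNMT1 copies the mark to the new strand after replication, guided there by UHRF1, which recognises hemimethylated CpG. UHRF2 is the paralogue of UHRF1. TET1, TET2 and TET3 oxidise 5-methylcytosine, which starts its removal. In early embryos and in stem cells that leave pluripotency, these enzymes are known to be exchanged and their balance reset. Some variant PRC1 complexes, but not all, are known to be drawn to unmethylated CpG islands, the CpG-dense stretches at many gene starts, through a CXXC zinc finger protein.

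The stretches of 200 bases directly upstream of 7 member start sites are shown first because the CpG content of these starts runs from very high to very low and because RYBP peaks were found at some of them and not at others. Start sites were those of RefSeq transcripts, placed on mm9 by an exact match of the RefSeq promoter sequence (tabled for GRCm38). The Dnmt3a short-form stretch is an exception. It ends before a GENCODE start (chr12:3891728) that lies ahead of the RefSeq start (chr12:3891744). The Dnmt3l stretch overlaps an annotated Dnmt3l exon. Each sequence is read from mm9 in the direction of the gene, and capitals mark every CpG. The Dnmt3a long-form start (chr12:3806780-3806979, plus strand, 29 CpG), the Dnmt3a short-form start (chr12:3891528-3891727, plus strand, 14 CpG), the Uhrf2 start (chr19:30104803-30105002, plus strand, 20 CpG), the Tet2 start (chr3:133207355-133207554, minus strand, 40 CpG) and the Tet1 start (chr10:62350073-62350272, minus strand, 12 CpG) had a peak of each replicate within 2.5 kb. The Dnmt1 start (chr9:20757424-20757623, minus strand, 7 CpG) had none, and the first Dnmt3l start (chr10:77504832-77505031, plus strand, 4 CpG) had a peak of each replicate at different places. Sequences not printed split less cleanly by CpG. The other somatic Dnmt1 sequence (18 CpG) had no peak, and Tet3 (14 CpG) had peaks that did not overlap. The first Uhrf1 start (9 CpG) had overlapping peaks of both replicates. The rest went with the split: Dnmt3b (20), the later Uhrf1 start (25) and a further Dnmt3a sequence (29) had overlapping peaks. The upstream Dnmt1 start (1) and the later Dnmt3l starts (4 and 3) did not.
Dnmt3a long form: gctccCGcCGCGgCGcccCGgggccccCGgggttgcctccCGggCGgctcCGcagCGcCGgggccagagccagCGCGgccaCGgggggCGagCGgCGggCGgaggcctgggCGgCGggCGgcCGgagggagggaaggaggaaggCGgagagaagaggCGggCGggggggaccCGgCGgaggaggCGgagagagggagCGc
Dnmt3a short form: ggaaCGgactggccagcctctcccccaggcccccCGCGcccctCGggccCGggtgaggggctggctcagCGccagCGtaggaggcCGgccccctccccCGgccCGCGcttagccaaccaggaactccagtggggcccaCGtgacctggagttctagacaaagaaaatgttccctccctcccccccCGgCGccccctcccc
Uhrf2: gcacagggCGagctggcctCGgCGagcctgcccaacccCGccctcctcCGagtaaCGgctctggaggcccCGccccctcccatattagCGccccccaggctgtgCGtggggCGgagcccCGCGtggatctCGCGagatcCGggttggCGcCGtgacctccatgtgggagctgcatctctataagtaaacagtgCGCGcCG
Tet2: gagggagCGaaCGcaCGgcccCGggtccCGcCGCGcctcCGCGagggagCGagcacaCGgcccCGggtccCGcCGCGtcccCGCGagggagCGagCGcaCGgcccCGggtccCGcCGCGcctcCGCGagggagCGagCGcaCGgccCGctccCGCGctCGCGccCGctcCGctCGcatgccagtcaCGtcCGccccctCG
Tet1: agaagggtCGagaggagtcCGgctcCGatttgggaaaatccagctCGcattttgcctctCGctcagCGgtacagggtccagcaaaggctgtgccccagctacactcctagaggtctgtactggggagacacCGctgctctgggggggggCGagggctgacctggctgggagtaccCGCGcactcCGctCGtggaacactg
Dnmt1: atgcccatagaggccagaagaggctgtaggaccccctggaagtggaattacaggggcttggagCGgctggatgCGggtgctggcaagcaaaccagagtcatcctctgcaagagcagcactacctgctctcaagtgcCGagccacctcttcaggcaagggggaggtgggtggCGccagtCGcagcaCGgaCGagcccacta
Dnmt3l: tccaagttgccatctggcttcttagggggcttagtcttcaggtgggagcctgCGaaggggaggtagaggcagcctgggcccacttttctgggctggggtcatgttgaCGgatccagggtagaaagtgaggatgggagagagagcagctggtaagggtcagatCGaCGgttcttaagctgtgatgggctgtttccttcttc

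The Tet2 sequence is also a tandem repeat. Shifted by 42 bases, 73.4% of its bases met the same base, whereas the best shift in each of the other 15 member sequences of the same length gave 33.2% to 51.1%. Reads that fall within such a repeat can be hard to place. The replicate 2 peak covered this stretch and the replicate 1 peak lay wholly upstream of it, with nearly the same fold enrichment.

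RYBP peaks lay at most of these genes, and the replicates shared a region at 6 of them. A merged region, meaning a region of the authors' union of both peak lists, overlapped 8 of the 9 member loci (gene body with 5 kb upstream). Across all 22225 genes the share was 57.0%. A region found in both replicates, meaning a merged region that overlapped a peak of each, lay at the loci of Dnmt3a, Dnmt3b, Tet1, Tet2, Uhrf1 and Uhrf2, which is 6 of 9 against 38.9% of all genes. Dnmt3l and Tet3 had merged regions from 1 replicate at a time, and Dnmt1 had none. With 9 genes chosen by name, these counts are given beside the background as a description, and no test was made on them.

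At start sites the picture depended on the annotation for Tet1. Within 2.5 kb of the start sites of GENCODE protein-coding transcripts, upstream or downstream, 7 of 9 members had a merged region, against 53.4% of 22219 genes with a usable start site, and 5 of 9 had one found in both replicates, against 36.8%. Dnmt1 and Tet1 had no region at a start site by this annotation, and Dnmt3l and Tet3 none found in both replicates. Taking RefSeq starts instead, 8 of 9 had a merged region (background 56.0% of 14622 genes) and 6 of 9 had one found in both replicates (background 38.5%), since the region in the Tet1 gene then fell on a start site. In all, 13 of 24 GENCODE start sites of the members and 11 of 14 RefSeq start sites had a merged region. Over all protein-coding genes, 14330 of 31246 GENCODE start sites and 8961 of 16584 RefSeq start sites had a merged region. Of the 24 GENCODE start sites of the members, 9 belonged to Dnmt3a.

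Among the members with a start-site peak, Dnmt3a, Uhrf2, Tet2 and Dnmt3b had the higher fold enrichments and Uhrf1, Tet1, Tet3 and Dnmt3l the lower ones. Fold enrichment is the linear ratio of the ChIP pile-up to the local background that the authors' peak caller gave to each peak, and it is compared here within a replicate. At RefSeq starts the median over genes of the strongest start-site peak was 3.51 in replicate 1 (6170 genes) and 3.89 in replicate 2 (7754 genes). The 4 upper members were above that median in both replicates. Uhrf1 and Tet1 lay close to it, and Dnmt3l lay below it in both. Ordered by the mean of both replicates, the values were 5.58 ± 0.828 for Dnmt3a, 5.05 ± 1.01 for Uhrf2, 4.68 ± 0.00673 for Tet2 and 4.49 ± 0.309 for Dnmt3b (SD, n = 2). They were 3.71 ± 0.392 for Uhrf1, 3.64 ± 0.127 for Tet1, 3.44 ± 0.244 for Tet3 and 3.16 ± 0.152 for Dnmt3l (SD, n = 2). For Tet3 and Dnmt3l the peaks of the 2 replicates did not overlap and lay 587 and 1827 bp apart. Their SD, and differences that use them, therefore do not give the spread at 1 site. The medians of the 2 lists differ, so a small SD does not mean the same rank in both. Tet2, with the smallest SD, lay above 93.3% of genes with such a peak in replicate 1 and 79.5% in replicate 2. Of the 7 pairs of neighbours in this order, only Dnmt3b and Uhrf1 differed by more than the spread between replicates, with a difference in fold enrichment of 0.779 ± 0.0831 (SD, n = 2). The other neighbours changed places between replicates. With 2 replicates an exact test could not reach significance, and none is given.

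**Figure D1:**
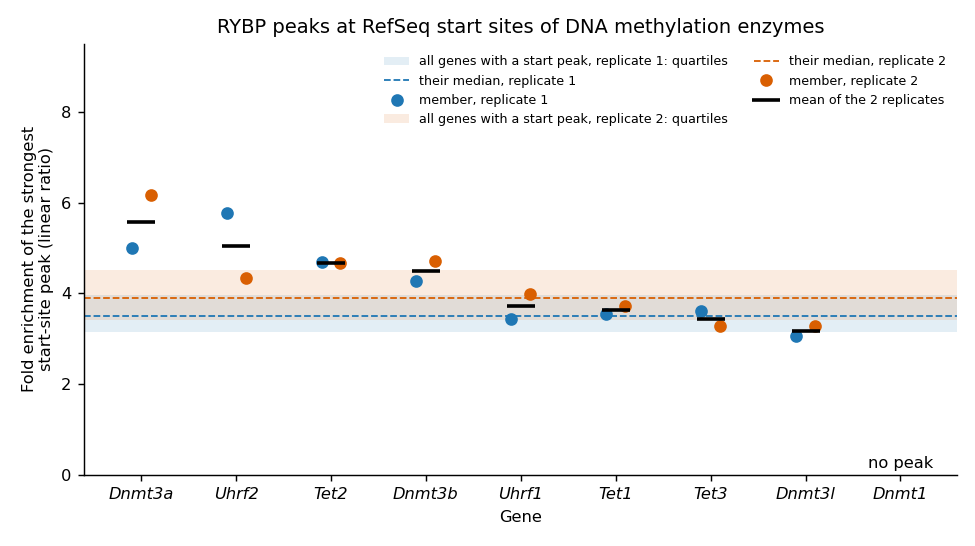
Fold enrichment of the strongest RYBP peak within 2.5 kb of a RefSeq start site for each member gene (y axis, linear ratio, from 0), in replicate 1 (blue) and replicate 2 (orange), with the mean of both as a black bar. Dashed lines and shaded bands give the median and quartiles of all genes with such a peak in the same replicate. Dnmt3a reaches 6.16 in replicate 2, and Dnmt1 has no peak. Dnmt3l has 3.06 and 3.27, and at Dnmt3l and Tet3 the peaks of the 2 replicates do not overlap.

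Of the maintenance genes, Dnmt1 carried no RYBP peak at all. The locus (gene body chr9:20711650-20757317, minus strand) held 0 merged regions and 0 peaks of either replicate. The nearest merged region lay in the neighbouring gene Eif3g, which encodes a translation initiation factor subunit, at 8676 bp from the locus and 54093 bp from the nearest Dnmt1 start, and came from replicate 2 alone (fold enrichment 3.34). Dnmt1 has a start used in somatic cells and an upstream one, 6909 bp away, known for the oocyte transcript. CpG density, counted over the 500 bp to either side of a start, was 5.29 CpG per 100 bp at the somatic start and 0.40 at the upstream start. Of all 2913 RefSeq start sites with 4 to 6 CpG per 100 bp, 72.8% had a merged region and 46.7% one found in both replicates, so a start of this CpG density with no peak was not rare. A place in neither list means no peak past the callers' threshold, and is not a measured absence of RYBP.

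Uhrf1 (chr17:56442744-56462909, plus strand) had 1 merged region, found in both replicates, over its first exon (chr17:56442736-56443922, 1187 bp, 8.26 CpG per 100 bp). Its fold enrichment was 3.44 in replicate 1 and 3.99 in replicate 2, with −log10 q of 3.20 and 4.14. Both values are close to the middle of all genes with a start-site peak (above 45.1% and 55.0% of them). The 2 RefSeq starts of Uhrf1 lie 976 bp apart. The replicate 2 peak covered both, whereas the shorter replicate 1 peak, of 375 bp, began 46 bp past the first and ended before the second.

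Uhrf2 (chr19:30105003-30168212, plus strand) also had 1 region found in both replicates, around its start (chr19:30104301-30105624, 1324 bp, 11.2 CpG per 100 bp), reaching into the first coding exon. Fold enrichment was 5.77 in replicate 1 and 4.33 in replicate 2, and −log10 q was 9.03 and 5.76. Both replicates put the peak at nearly the same place, from 702 bp upstream to 607 bp downstream of the start in replicate 1 and from 543 bp upstream to 621 bp downstream in replicate 2. Replicate 1 ranked it above 98.6% of genes with a start-site peak and replicate 2 above 69.0%. Uhrf2 exceeded its paralogue Uhrf1 in both replicates, by 2.33 and 0.34 in fold enrichment, which averages 1.33 ± 1.41 (SD, n = 2), so that the size of the difference was not larger than the spread between replicates.

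Of the de novo methyltransferase genes, Dnmt3a (chr12:3806007-3914443, plus strand) had RYBP peaks of each replicate at both of its known promoters, and those at the second were weaker. The gene makes a long form, DNMT3A1, and a short form, DNMT3A2, which starts 84764 bp further on and lacks the amino-terminal part. It is the short form that is prominent in embryonic stem cells. The locus held 7 merged regions, of which 2 were found in both replicates, and these 2 covered the long-form and the short-form start.

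The long-form region (chr12:3805687-3809815) was 4129 bp wide, wider than 93.9% of all regions found in both replicates, and held 7.60 CpG per 100 bp. Its fold enrichment was 4.99 in replicate 1 and 6.16 in replicate 2, with −log10 q of 7.03 and 9.23. These values exceeded 97.4% and 98.2% of all peaks of their lists. The peak ran from 338 bp upstream to 1819 bp downstream of the RefSeq start in replicate 1, and from 1293 bp upstream to 2835 bp downstream in replicate 2. The short-form region (chr12:3891161-3892326, 1166 bp, 4.63 CpG per 100 bp) was weaker, with a fold enrichment of 3.19 and 4.12 and −log10 q of 1.85 and 4.02. Its fold enrichments exceeded 41.7% and 71.9% of all peaks of their lists, and its replicate 1 peak did not reach a −log10 q of 2. In replicate 1 its peak spanned the short-form start, from 551 bp before to 582 bp after. In replicate 2 the peak ended 141 bp before the start. The long-form start was the stronger of the 2 in each replicate.

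The other 5 merged regions of Dnmt3a came from 1 replicate each. Replicate 1 alone had a peak in an intron (chr12:3833986-3834946, fold enrichment 3.16) and 1 over a coding exon (chr12:3873266-3873737, 3.04). Replicate 2 alone had 3 intronic peaks (chr12:3871764-3872501, chr12:3873894-3874090 and chr12:3892657-3893633) with fold enrichments of 3.09, 3.29 and 3.16. None of the 5 reached a −log10 q of 2. Peaks of both replicates fell close together around the coding exon but did not overlap.

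**Figure D2:**
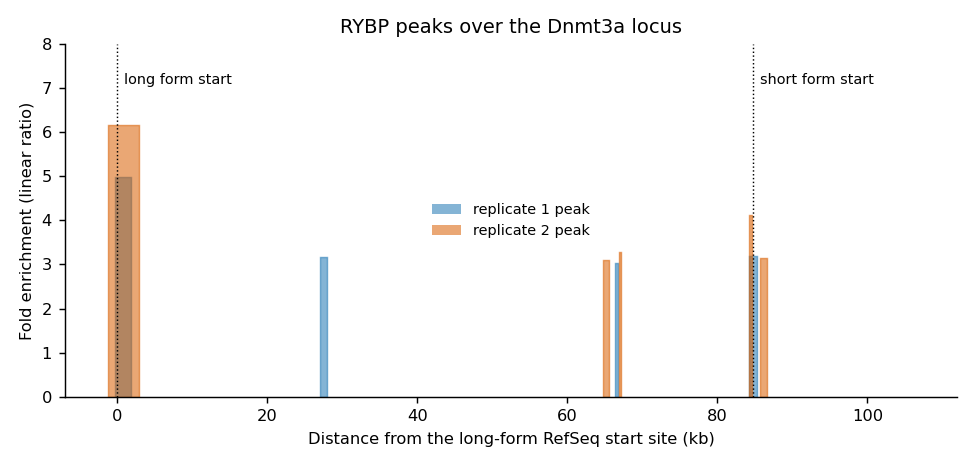
RYBP peaks over the Dnmt3a locus by distance from the long-form RefSeq start site (x axis, kb); box width is the extent of a peak and box height its fold enrichment (y axis, linear ratio, from 0), in blue for replicate 1 and orange for replicate 2. Boxes of both replicates overlap at the long-form start, where they reach 4.99 and 6.16, and at the short-form start, where they reach 3.19 and 4.12, and nowhere else.

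Dnmt3b (chr2:153475186-153513466, plus strand) had 1 merged region, found in both replicates, over its start and first intron (chr2:153474548-153477393, 2846 bp, 5.31 CpG per 100 bp). Fold enrichment was 4.27 in replicate 1 and 4.71 in replicate 2, and −log10 q was 5.94 and 5.99. Both peaks began about the same distance upstream, at 573 and 637 bp, and ran 2208 and 1176 bp into the gene. The region also overlapped a noncoding antisense gene, 7530422B04Rik, and the peaks do not tell these genes apart. Fold enrichment at Dnmt3a exceeded that at Dnmt3b in both replicates, by 0.719 and 1.45, or 1.09 ± 0.519 (SD, n = 2).

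Dnmt3l (chr10:77504692-77526367, plus strand), whose product lacks catalytic activity, had only weak and unshared peaks. Replicate 1 had a peak of 289 bp ending 707 bp upstream of the first start (chr10:77504037-77504325, fold enrichment 3.06, −log10 q 1.35). Replicate 2 had a peak of 482 bp beginning 1121 bp downstream of it (chr10:77506153-77506634, 3.27, 1.54). These lay 1827 bp apart. The second also covered the start site of Aire, which encodes a regulator of self-antigen expression in the thymus and overlaps Dnmt3l, and the first lay in the Aire gene body. A further replicate 1 peak lay over a coding exon, 931 bp before the third start (chr10:77516547-77517149, 2.94, 1.07). All 3 RefSeq starts of Dnmt3l were poor in CpG, at 1.50, 1.90 and 1.30 per 100 bp. Among all 2367 RefSeq starts with 1 to 2 CpG per 100 bp, 17.1% had a merged region and 8.20% one found in both replicates. Fold enrichment at Dnmt3a exceeded that at Dnmt3l by 1.94 and 2.89, or 2.41 ± 0.675 (SD, n = 2), with the Dnmt3l values taken from peaks at different places.

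Of the TET genes, Tet2 had the highest fold enrichment in both replicates, Tet1 a weaker region at a start given by RefSeq and not by GENCODE, and Tet3 peaks that the replicates did not share. Tet2 (chr3:133126643-133207354, minus strand) had 1 region found in both replicates (chr3:133207210-133208215, 1006 bp, 11.2 CpG per 100 bp, more than 92.6% of such regions). Fold enrichment was 4.68 in replicate 1 and 4.67 in replicate 2, and −log10 q was 5.49 and 4.83. The region lay mostly upstream of the gene. The replicate 1 peak ran from 861 to 207 bp upstream of the start, outside the 200 bases printed above, and the replicate 2 peak from 800 bp upstream to 144 bp downstream, across them.

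Tet1 (chr10:62267318-62361866, minus strand) had 1 merged region, found in both replicates (chr10:62348387-62350261, 1875 bp, 5.33 CpG per 100 bp). By GENCODE it lay in an intron, 5625 bp from the nearest protein-coding start. By RefSeq it covered the Tet1 start, which the replicate 1 peak spanned from 117 bp upstream to 406 bp downstream and the replicate 2 peak from 189 bp upstream to 1685 bp downstream. Fold enrichment was 3.55 and 3.73, and −log10 q was 2.85 and 3.03. That is above 52.7% and 42.5% of genes with a RefSeq start-site peak. The upper end of the Tet1 sequence printed above lies inside neither peak, since both ended less than 200 bases upstream of the start. Tet2 exceeded Tet1 by 1.13 and 0.942 in fold enrichment, or 1.04 ± 0.134 (SD, n = 2).

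Tet3 (chr6:83312367-83391672, minus strand) had 3 merged regions, none found in both replicates. Replicate 1 had a peak of 1445 bp from 181 to 1625 bp downstream of the start (chr6:83390047-83391491, fold enrichment 3.62, −log10 q 2.51). Replicate 2 had a short peak of 206 bp from 2213 to 2418 bp downstream (chr6:83389254-83389459, 3.27, 1.53), 587 bp beyond the end of the other, and an intronic peak 19171 bp downstream (chr6:83371118-83372501, 3.54, 1.97). Tet2 exceeded Tet3 by 1.07 and 1.40, or 1.24 ± 0.237 (SD, n = 2), with the Tet3 values taken from peaks at different places. Outside the locus as defined, a much stronger region found in both replicates lay 13995 bp upstream of the Tet3 start (chr6:83405667-83407362, 1696 bp). Its fold enrichment was 5.62 and 5.88, above 99.1% and 97.2% of all peaks of their lists, and it held 10.02 CpG per 100 bp. No GENCODE gene body and no placed RefSeq start overlapped it, and no gene was assigned to it.

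**Figure D3:**
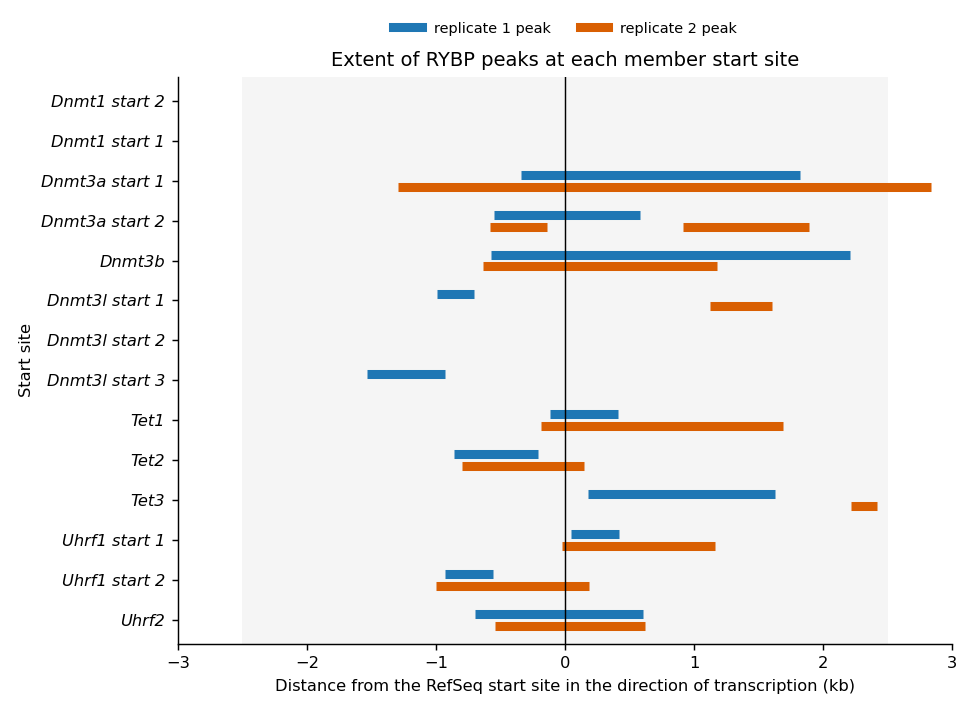
Extent of each RYBP peak (bars, blue for replicate 1 and orange for replicate 2) within 3 kb of the 14 RefSeq start sites of the members, by distance from the start in the direction of transcription (x axis, kb; the grey area is the window of 2.5 kb). Rows without a bar have no peak; bars of both replicates overlap at 8 start sites, and at Tet3 and the first Dnmt3l start they lie apart.

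Shared regions lay at every member RefSeq start of high CpG density, at some of middle density and at none of low density. The share of all RefSeq starts with a shared region also rose with CpG density. The 4 RefSeq starts with at least 10 CpG per 100 bp, which are those of Dnmt3b (10.2), Tet2 (10.5), Uhrf2 (12.2) and the Dnmt3a long form (15.5), all had a region found in both replicates, as did 84.8% of all 1273 such starts. The later Uhrf1 start (7.79 CpG per 100 bp) had one too, as did 59.5% of all 2800 starts with 6 to 8. Of the 5 starts with 4 to 6 CpG per 100 bp, those of the Dnmt3a short form, Tet1 and the first of Uhrf1 had a shared region. That of Tet3 had unshared peaks and that of Dnmt1 had none. Over all 2913 starts of this density, 46.7% had a shared region. Of the 4 starts with fewer than 2, which belong to Dnmt3l and the upstream start of Dnmt1, none had a shared region. Over all starts the share was 1.97% below 1 CpG per 100 bp and 8.20% from 1 to 2. By GENCODE, 1 member start with fewer than 2 CpG per 100 bp did have a shared region within 2.5 kb. It was an internal Dnmt3a start (chr12:3894824, 1.80 CpG per 100 bp) downstream of the short-form region. Among all 6289 GENCODE starts with 1 to 2 CpG per 100 bp, 8.68% had a shared region. Over GENCODE start sites, the median was 5.49 CpG per 100 bp over the 13 member starts with a merged region and 1.20 over the 11 without. All protein-coding start sites gave 6.29 and 1.20. Member starts with and without a region thus stood near those of other genes. Start sites of 1 gene are not independent of each other.

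**Figure D4:**
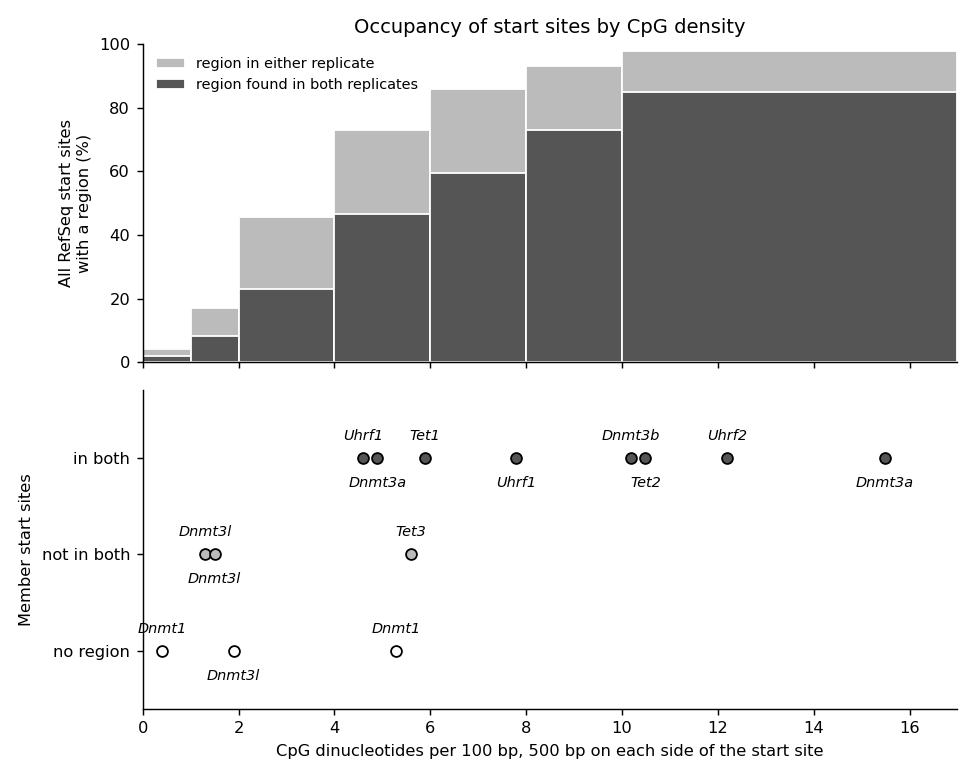
Top, share of all RefSeq start sites (y axis, %) with a merged region in either replicate (light bars) and with one found in both (dark bars), by the number of CpG per 100 bp in the 500 bp to either side (x axis; the last bar holds all starts at 10 or more). Bottom, the 14 member start sites at their own CpG density, by occupancy; the 4 starts above 10 sit at 84.8% in the top panel and all have a shared region, and Dnmt1 and Tet3 have none at densities near those of Tet1 and Uhrf1.

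The promoter sequences were also searched, on both strands, for 4 short motifs in the windows of 300 bases that RefSeq gives (250 before and 50 after each start). The motif GCGGGAA, bound by E2F factors, was present in 1 of 16 member windows, that of the first Uhrf1 start, and in 4.60% of all 32851 windows. The E-box CACGTG was in 2 member windows, of the Dnmt3a short form, where it can be read in the sequence above, and of the second Dnmt3l start, and in 7.15% of all. CCATNTT, bound by YY1, a partner of RYBP, was in 1 member window, that of Uhrf2 (ccatatt above), and in 16.1% of all. GCGCATG, part of the motif bound by NRF1, was in 2 windows, both of the somatic start of Dnmt1, and in 3.91% of all. None of these motifs contains another, and a match describes the letters and not the binding of a factor.

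Genes that work with these enzymes showed a mixed picture. A list of 30 genes of the pathway was set beside the members, of which 23 had a merged region at a GENCODE start site (76.7%, background 53.4%) and 16 had one found in both replicates (53.3%, background 36.8%). Of 13 genes of active demethylation and its regulators, 11 had a merged region and 6 a shared one. Of 9 partners and protectors of methylation, 7 had a merged and 6 a shared region, and of the 2 genes of the methyl donor cycle, 2 and 1. Of 6 MBD and ZBTB genes, grouped here as readers of methylated CpG, 3 had a merged region, all shared. The median fold enrichment of the strongest start-site peak was 3.82 in replicate 1 (19 genes) and 4.13 in replicate 2 (20 genes), against 4.27 and 4.33 over the 7 members with such a peak and 3.53 and 3.90 over all genes. At RefSeq starts, 22 of the 30 had a merged region (73.3%, background 56.0%) and 14 a shared one (46.7%, background 38.5%). Of the 13 demethylation genes, 4 then had a shared region (30.8%), below the background, while the other groups kept their shared counts.

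Of the pathway genes with a shared region, 5 had the largest smaller value of both replicates. Gadd45g, which encodes a stress-response protein linked to active demethylation, reached a fold enrichment of 4.78 and 5.57 in replicates 1 and 2. Zfp57, whose zinc finger protein protects methylation at imprinted regions, had 5.40 and 4.65. Hells, which encodes the chromatin remodeller LSH, had 4.76 and 4.46. Idh2, whose mitochondrial enzyme makes the 2-oxoglutarate that TET proteins need, had 4.43 and 4.25, and Zbtb4, which encodes a methyl-CpG-binding zinc finger protein, had 4.66 and 4.13. These genes were picked for high values, so their place above the median of all genes is no result. There were 7 pathway genes without a merged region at a start site. The first 5 by alphabet were Apobec1, which encodes an RNA-editing enzyme, Dppa3, which protects the maternal genome from oxidation, Mbd1 and Mbd2, which encode readers of methylated CpG, and Neil1, which encodes a DNA glycosylase of base excision repair.

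**Figure D5:**
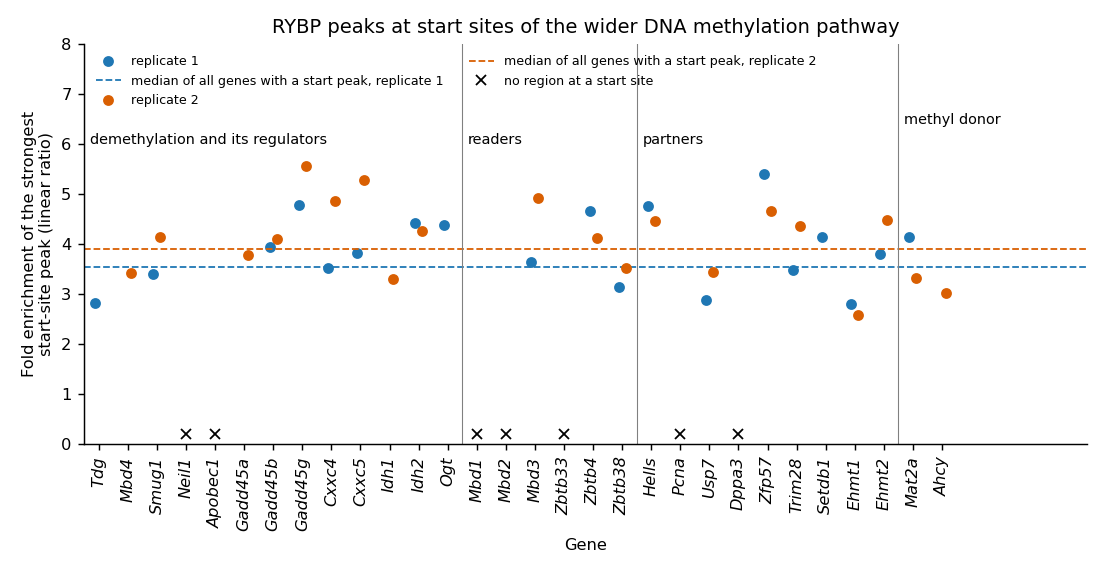
Fold enrichment of the strongest RYBP peak within 2.5 kb of a GENCODE start site (y axis, linear ratio, from 0) for the 30 genes of the wider pathway, by role, in replicate 1 (blue) and replicate 2 (orange). Crosses mark the 7 genes with no region, a gene with 1 point has a peak of 1 replicate, and dashed lines give the medians of all genes with a start peak, 3.53 and 3.90.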

How the data were processed

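RYBP ChIP-seq of 2 replicates was used; both inputs had no processed file and were not analysed here. Per the labels and the methods, the authors aligned paired reads to mm9 with Bowtie 1.1.2b, removed duplicates and called broad peaks in each replicate separately with MACS2 2.0.10. The deposited peak lists (14794 and 18154 peaks) give a fold enrichment (a linear ratio of pile-up to local background), −log10 p and −log10 q, and a score of 10 times the −log10 q, rounded down and not used. The deposited merged list holds 22409 positions without values. It was identical to the union of both lists once replicate 2 starts were moved by 1 bp, so positions are certain to 1 bp, and 9901 of its regions were in both replicates. Peak lists carry no read depth, and none entered a calculation. The supplement of the study counts more mapped reads in replicate 1 than in replicate 2, for ChIP and input alike, although replicate 1 has fewer peaks. The q-value is at most 0.1 in every peak by the authors' threshold, since the lowest −log10 q was 1.00 and 1.01.

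Overlaps of at least 1 bp were counted in Python 3.11.15 with numpy 2.4.6 and pandas 2.3.3. Start sites within 500 bp of each other were joined. CpG density is CpG dinucleotides per 100 bp within 500 bp of a start. RefSeq promoters were placed on mm9 by exact match (31959 of 32851, and 16 of 16 for the members). Overlap counting was checked on simulated peaks. Members and lists were chosen with earlier results of these data known, and the use of RefSeq starts, the 1 kb gap, the motifs and the repeat search were added after seeing the data. Some items of the pathway list are not reported here. Named genes were all members and the 5 pathway genes with the largest smaller-of-replicates fold enrichment at a shared region. The first 5 by alphabet without a region and protein-coding genes under a member region were also named. Besides these, Eif3g near the Dnmt1 locus and the noncoding 7530422B04Rik under the Dnmt3b region were named. Genes nearest to the other member loci were not. Nothing in the labels or methods says more of the replicates than that they came from independent differentiations.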

Additional observations from a re-analysis of the deposited data

How the results depend on the processing

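Counts of members, start sites and pathway genes, and the medians of CpG density, were recomputed with stricter peaks (−log10 q of at least 2, or fold enrichment of at least 3), other windows and loci, other start sites and stricter overlap. All 73 of these values stayed within 1.5 times the count or within the spread of the main one. That limit is wide, so staying within it says little about stability. For CpG density the spread was the SD over member start sites, 4.61 with a region and 1.42 without. Apart from RefSeq starts, no share of all genes is given beside the changed counts. Loci with a merged region numbered 7 to 8, with Dnmt3l lost at a −log10 q of 2. Loci with a shared region went from 6 to 4 when peaks of each replicate had to cover 50% of the region, which lost Tet1 and Uhrf1, and to 7 when a gap of 1 kb was allowed, which added Tet3. Member start sites with a merged region numbered 9 to 14, and pathway genes 19 to 23. Pathway genes with a shared start-site region went from 16 to 13 with either form of stricter peaks. With 1 replicate left out, members with a region stayed at 8 at loci and 7 at start sites in either replicate, member start sites at 12, and pathway genes at 19 to 20. The median CpG density of member starts with a region ranged from 5.25 to 9.89 per 100 bp and that of starts without from 1.20 to 1.90. The members' median fold enrichment was 3.95 in replicate 1 and 4.16 in replicate 2 at RefSeq starts, which add Tet1, and 4.67 in replicate 2 with a window of 1 kb. No paired analysis was possible because the inputs carrying the same replicate numbers have no processed file and the results come from no test. What limits these values is that 2 replicates were available and that replicate 1, the deeper library by the study's supplement, has the fewer peaks.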
